A study of Drosophila melanogaster with 6 samples.

Results

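The 10 genes described here encode the core of the basement membrane of *Drosophila melanogaster*. They are *Col4a1* and *vkg*, which encode the chains of collagen IV, *LanA*, *LanB1* and *LanB2*, which encode laminin chains, *Ndg*, which encodes nidogen, *trol*, which encodes the heparan sulfate proteoglycan perlecan, and *SPARC*, *Ppn* and *Pxn*. They were chosen by name, from what their proteins do, out of 14240 genes in the deposited table. They account for 46 of its 30828 transcripts.

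A basement membrane is a thin sheet of secreted protein that lies under epithelia and around muscle, fat body, glands and nerves. Laminin trimers bind to receptors on the cell surface and form the first layer, collagen IV forms a cross-linked network, and nidogen and perlecan bind to both. In the larva much of the collagen IV is secreted by the fat body into the hemolymph and is built into the matrix of other tissues, and hemocytes secrete matrix proteins as well. The sensory multidendritic (md) neurons of the body wall grow their dendrites along the epidermal basement membrane and attach to it through integrins.

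RNA that had been tagged in living third-instar larvae was captured from carcasses whose central nervous system had been removed, and 3 sample types were sequenced with 2 replicates each. For EC-RNA, larvae that carried UAS-CD:UPRT together with the driver 109(2)80-Gal4 were fed 5EC for 12 hours, and only cells with the CD:UPRT enzymes can turn 5EC into a nucleotide that enters RNA. For ref-RNA, larvae with UAS-CD:UPRT and no Gal4 driver were fed 5EUd for 12 hours, which tags RNA in every cell, and for mock-RNA, larvae with UAS-CD:UPRT were fed neither. All larvae therefore carried UAS-CD:UPRT, only the EC-fed larvae carried the driver, and the driver is active in md neurons and in central neurons that were dissected away. Each library came from many pooled carcasses, and the replicates were separate from the feeding of the larvae onwards. In such samples fewer cells of a type and less RNA per cell cannot be told apart.

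All levels are gene sums in TPM, a transcript abundance relative to the library total that is scaled for transcript length, so that levels of different genes can be compared. TPM keeps no read depth, so no counting interval is given. The paper reported the most mapped reads for ref-RNA, fewer for EC-RNA and by far the fewest for mock-RNA. Values of 0 or a few TPM in mock-RNA therefore rest on few reads, as do the ratios and fitted differences formed from them. The numbers of genes above 0 were not taken at equal depth. The number of genes with a value above 0 was 9942 and 10369 in ref-RNA, 4761 and 5016 in EC-RNA and 2178 and 1812 in mock-RNA. Of the 6 md neuron markers, *Gr28b* was at 0 in all 6 libraries, *ppk26* was at 0 in both EC-RNA libraries and *ppk* was at 0 and 0.0910 TPM, while *Piezo* was at 0.806 and 55.9 TPM. The replicates of EC-RNA thus stood apart for md neuron genes, with a summed marker level of 1.23 and 105 TPM against 107 and 92.8 TPM in ref-RNA. EC-RNA also held 9389 and 13903 TPM of fat body markers, against 12496 and 46211 TPM in ref-RNA. Muscle markers were at 30362 and 29394 TPM, against 60686.5 and 54982 TPM. Epidermis and cuticle markers were at 25867 and 38952.5 TPM, against 17191.5 and 14281 TPM. General neuron markers were at 34.9 and 360 TPM, against 95.0 and 81.3 TPM. The labelled tissue, md neurons, thus describes where the enzyme was expressed and not the only source of the RNA in EC-RNA. Mock-RNA held 43.5 and 255 TPM of the same fat body markers, with 5 and 4 of the 6 at 0, and 14904 and 34431 TPM of the muscle markers.

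All 10 genes were above 5 TPM in both ref-RNA libraries. In EC-RNA, 6 of the 10 were below 5 TPM in replicate 1 and 4 in replicate 2. In mock-RNA, 2 and 3 of them were below 5 TPM. Without *trol*, the members summed to 401 and 499 TPM in ref-RNA, to 156 and 215 TPM in EC-RNA and to 114 and 143 TPM in mock-RNA. *trol* alone reached 4167 and 9809 TPM in mock-RNA and is described separately.

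**Figure D1:**
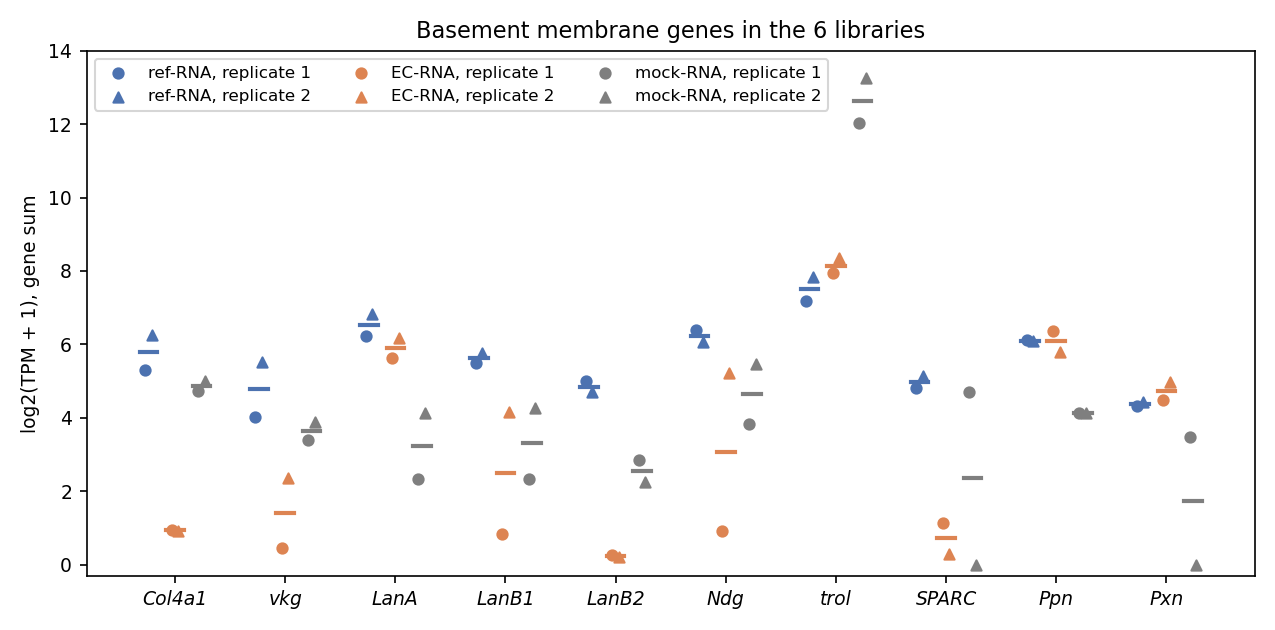
Level of each basement membrane gene, as log2(TPM + 1) of the gene sum (y axis), in the 6 libraries; circles are replicate 1, triangles are replicate 2 and short lines are the mean of the 2 log2 values of a sample type. *Col4a1*, *LanB2* and *SPARC* lie near 0 in both EC-RNA replicates, *LanB1* and *Ndg* are far apart between the EC-RNA replicates, and *trol* in mock-RNA lies above every other point.

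The collagen IV genes were low in EC-RNA. *Col4a1* (FBgn0000299, chromosome arm 2L, 5029609-5037279, plus strand) was at 38.3 and 76.0 TPM in ref-RNA, 0.928 and 0.887 TPM in EC-RNA, and 25.7 and 31.0 TPM in mock-RNA. Both EC-RNA values were at 1.62% and 1.55% of the ref-RNA mean of 57.2 ± 26.6 TPM (SD, n = 2), and the 3 sample types did not overlap. *Col4a1* fell by 4.85 ± 0.57 (SE) on the log2(TPM + 1) scale in EC-RNA against ref-RNA (limma, Benjamini-Hochberg adjusted p = 0.00629), the difference held its direction under every scaling, and it missed the threshold under quantile normalization (-1.17, adjusted p = 0.519) and median-of-ratios scaling (-2.35, adjusted p = 0.161). In mock-RNA its difference from ref-RNA was -0.91 ± 0.56 (limma adjusted p = 0.232).

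*vkg* (FBgn0016075, 2L, 5012144-5028191, minus strand) starts 1417 bases from *Col4a1* and is transcribed away from it. Its level was 15.4 and 45.3 TPM in ref-RNA, 0.364 and 4.11 TPM in EC-RNA, and 9.44 and 13.7 TPM in mock-RNA. Both EC-RNA values were below all the others, but they differed by 11.3-fold. The difference from ref-RNA was -3.38 ± 1.00 and missed the threshold (limma adjusted p = 0.0621). It passed with all 3 sample types in 1 fit (limma adjusted p = 0.0464) and with a replicate block (limma adjusted p = 0.0276). Under quantile normalization it was -0.15 (limma adjusted p = 0.952) and under median-of-ratios scaling -1.03 (limma adjusted p = 0.579). It was -2.43 without EC-RNA replicate 1 and -4.34 without replicate 2, fits that hold no spread of EC-RNA. In mock-RNA the difference was -1.15 ± 0.70 (limma adjusted p = 0.234).

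The ratio of *Col4a1* to *vkg*, whose products join in the same trimer, was 2.50 and 1.68 in ref-RNA and 2.72 and 2.27 in mock-RNA. In EC-RNA it was 2.55 in replicate 1 and 0.216 in replicate 2. The second of these is the only library in which *vkg* exceeded *Col4a1*.

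Both collagen IV genes were higher in replicate 2 of ref-RNA than in replicate 1, by 1.98-fold for *Col4a1* and 2.95-fold for *vkg*. A ratio at least as high was found for 10.6% and 6.04% of 8894 genes above 0 in both libraries with a mean of at least 1 TPM. All 6 fat body markers were also higher in replicate 2, by 3.38-fold to 5.90-fold. The hemocyte markers had ratios from 0.572 to 1.09 and the muscle markers from 0.819 to 0.974. Of the other members, *LanA* and *trol* had ratios of 1.50 and 1.59 and the rest lay between 0.799 and 1.25. Among 6 genes of collagen IV modification and secretion the ratio ran from 0.885 for *Tango1* to 2.05 for *Pdi*, with *Plod* at 1.56, *PH4alphaEFB* at 1.40, *Crag* at 1.07 and *Rab10* at 1.03. The part of fat body content in these differences was not tested.

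**Figure D2:**
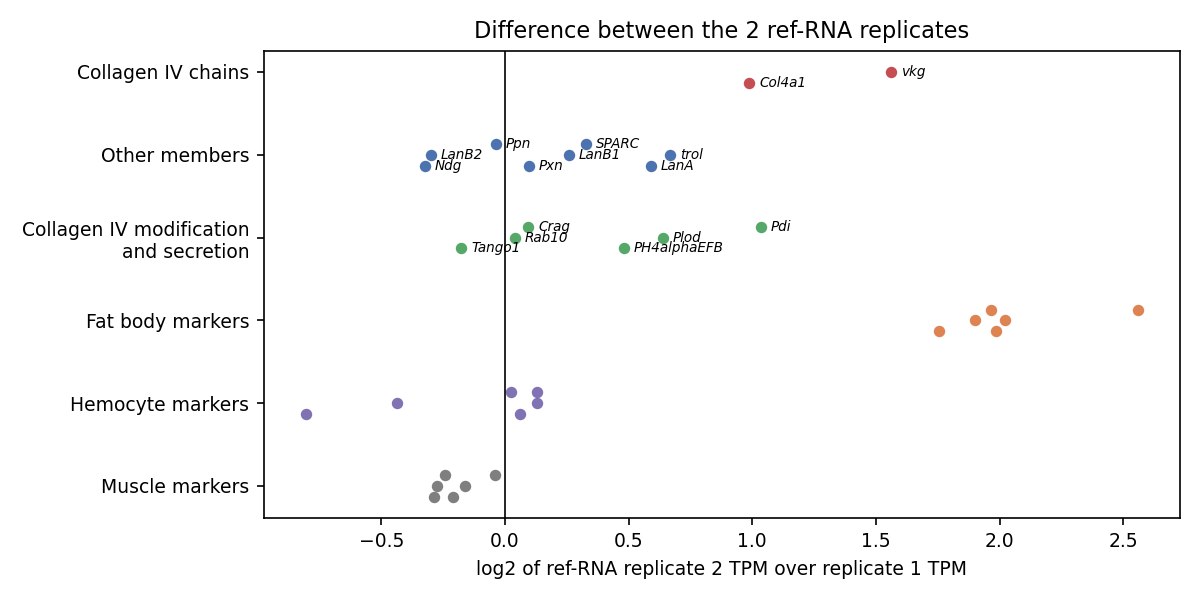
Ratio of the TPM in ref-RNA replicate 2 to that in replicate 1, on a log2 axis where 0 means no difference, for the collagen IV genes, the other members, genes of collagen IV modification and secretion, and the marker genes of 3 tissues; each point is a gene. *Col4a1* and *vkg* lie to the right of every other member, and the fat body markers lie further right still.

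The 3 laminin genes among the members encode an alpha (*LanA*), a beta (*LanB1*) and a gamma (*LanB2*) chain. All were low in some sample type but not in the same pattern. *LanA* (FBgn0002526, 3L, 6203831-6218022) was at 74.3 and 112 TPM in ref-RNA, 49.0 and 71.2 TPM in EC-RNA, and 4.05 and 16.5 TPM in mock-RNA. The EC-RNA values were just below the ref-RNA values and at 52.6% and 76.5% of their mean, while both mock-RNA values were far below. In EC-RNA the difference of -0.62 ± 1.07 did not pass (limma adjusted p = 0.689), and it was positive, at 2.51, under median-of-ratios scaling. *LanA* fell by 3.29 ± 0.84 in mock-RNA against ref-RNA (limma adjusted p = 0.0438), a call that held in 6 of 14 alternatives. It was lost under quantile normalization (-0.25, limma adjusted p = 0.855) and median-of-ratios scaling (-0.96, limma adjusted p = 0.368). The call was also lost without the 10 most abundant genes (limma adjusted p = 0.115) and with a pseudocount of 0.1 (limma adjusted p = 0.0690). With all 3 sample types in 1 fit (limma adjusted p = 0.0628) and with a replicate block (limma adjusted p = 0.0587) it did not pass. Nor did it pass without either ref-RNA replicate, fits that hold no spread of ref-RNA.

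*LanB1* (FBgn0261800, 2L, 7811438-7820771) was at 44.4 and 53.1 TPM in ref-RNA, 0.780 and 16.7 TPM in EC-RNA, and 4.04 and 18.3 TPM in mock-RNA. Both the EC-RNA and the mock-RNA values lay below ref-RNA and overlapped each other. The EC-RNA replicates differed by 21.4-fold, and the difference from ref-RNA was -3.14 ± 1.43 (limma adjusted p = 0.165). It was -4.80 with EC-RNA replicate 1 alone and -1.49 with replicate 2 alone, fits that hold no spread of EC-RNA. In mock-RNA the difference from ref-RNA was -2.33 ± 0.85 (limma adjusted p = 0.0934).

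*LanB2* (FBgn0267348, 3L, 9614914-9623980) was at 30.9 and 25.1 TPM in ref-RNA, 0.201 and 0.148 TPM in EC-RNA, and 6.27 and 3.79 TPM in mock-RNA. The EC-RNA values were the lowest of any member as a mean, at 0.720% and 0.529% of the ref-RNA mean, and the 3 sample types did not overlap. *LanB2* fell by 4.62 ± 0.26 in EC-RNA against ref-RNA (limma adjusted p = 0.00286). It was the only member that also passed under median-of-ratios scaling, at -2.77 (adjusted p = 0.0389), but not under quantile normalization (-0.72, adjusted p = 0.544). It fell by 2.29 ± 0.36 in mock-RNA against ref-RNA (limma adjusted p = 0.0147). The sign turned under quantile normalization (1.18), and the value was -0.024 under median-of-ratios scaling. The call was also lost with a replicate block (limma adjusted p = 0.0545) and without either ref-RNA replicate, fits that hold no spread of ref-RNA in the latter case.

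A laminin trimer joins an alpha, a beta and a gamma chain, and the proportions of these 3 genes differed between libraries. The ratio of *LanA* to *LanB1* was 1.68 and 2.11 in ref-RNA, 62.8 and 4.27 in EC-RNA, and 1.00 and 0.900 in mock-RNA. The ratio of *LanA* to *LanB2* was 2.41 and 4.45 in ref-RNA but 243 and 481 in EC-RNA, and it was 0.646 and 4.36 in mock-RNA. The mock-RNA values of *LanB2*, and those of *LanA* and *LanB1* in replicate 1, are a few TPM and rest on few reads. In EC-RNA *LanA* was thus at 52.6% and 76.5% of its ref-RNA mean while *LanB2* was close to 0, in both replicates.

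*Ndg* (FBgn0026403, chromosome arm 2R) encodes nidogen, which binds laminin and collagen IV. It was at 82.5 and 65.9 TPM in ref-RNA, 0.889 and 36.5 TPM in EC-RNA, and 13.2 and 43.0 TPM in mock-RNA. All EC-RNA and mock-RNA values were below ref-RNA, but the EC-RNA replicates were 41.1-fold apart, the widest gap of any member in that sample type. The difference of EC-RNA from ref-RNA was -3.15 ± 1.85 (limma adjusted p = 0.264). Without EC-RNA replicate 2 it was -5.31, and without EC-RNA replicate 1 it was -0.996, just under the 2-fold limit. Both of these fits hold no spread of EC-RNA. In mock-RNA it was -1.58 ± 0.78 (limma adjusted p = 0.162). Like the summed md neuron markers, *vkg*, *LanB1* and *Ndg* were higher in EC-RNA replicate 2 than in replicate 1, and so, by less, were *LanA*, *trol* and *Pxn*. *Col4a1*, *LanB2*, *SPARC* and *Ppn* were lower in replicate 2, with a ratio of 0.184 for *SPARC* and 0.672 for *Ppn*. Any relation of these gaps to the md neuron markers was not tested.

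*SPARC* (FBgn0026562, 3R, 26869238-26871995) encodes a secreted protein that binds collagen IV and is needed for its normal deposition. It was at 27.3 and 34.2 TPM in ref-RNA but only 1.20 and 0.221 TPM in EC-RNA, and in mock-RNA it was at 24.9 TPM in replicate 1 and listed at 0 in replicate 2. *SPARC* fell by 4.26 ± 0.46 in EC-RNA against ref-RNA (limma adjusted p = 0.00521). The *SPARC* call was lost without either ref-RNA replicate (adjusted p = 0.0571 and 0.0623), with all 3 sample types in 1 fit (adjusted p = 0.102), under quantile normalization (-0.087) and under median-of-ratios scaling (-1.91). The difference of mock-RNA from ref-RNA, -2.63 ± 1.92, did not pass (limma adjusted p = 0.303).

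*Ppn* and *Pxn* did not share the low level of the collagen IV genes in EC-RNA. *Ppn* (FBgn0003137, 3R, 28520665-28540324), which encodes papilin, a matrix glycoprotein related to ADAMTS proteases, was at 68.4 and 66.8 TPM in ref-RNA, 81.2 and 54.6 TPM in EC-RNA, and 16.6 and 16.5 TPM in mock-RNA. The EC-RNA values lay on either side of the ref-RNA values, and the difference was -0.02 ± 1.05 (limma adjusted p = 0.989), with a positive sign under quantile normalization, median-of-ratios scaling and both rescalings. *Ppn* fell by 1.96 ± 0.37 in mock-RNA against ref-RNA (limma adjusted p = 0.0212), but its sign turned under quantile normalization (0.95) and median-of-ratios scaling (0.44), and the call held in 8 of 14 alternatives.

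*Pxn* (FBgn0011828, 3L, 2601455-2630064) encodes peroxidasin, the enzyme that cross-links collagen IV, and is used as a hemocyte gene. It was at 19.2 and 20.5 TPM in ref-RNA, against 21.3 and 30.4 TPM in EC-RNA, and in mock-RNA it was at 10.1 TPM in replicate 1 and listed at 0 in replicate 2. Both EC-RNA values were above both ref-RNA values, but the difference of 0.34 ± 0.81 did not pass (limma adjusted p = 0.767), nor did that of mock-RNA, -2.64 ± 1.42 (limma adjusted p = 0.190). Of the 6 hemocyte markers, 5 fell in EC-RNA against ref-RNA, where 56.0% of all genes did, among them *Hml* from 58.3 and 63.7 TPM to 0.873 and 1.03 TPM. *eater* was at 24.2 and 17.9 TPM in ref-RNA and 70.5 and 46.1 TPM in EC-RNA, and *He* was at 0 in both EC-RNA libraries. The summed hemocyte markers were at 326 and 286 TPM in ref-RNA, 77.7 and 47.8 TPM in EC-RNA and 10.1 and 14.6 TPM in mock-RNA. Their part in the levels of *Pxn* and the other members was not tested.

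*trol* (FBgn0284408, X, 2470460-2545427, minus strand) encodes perlecan, and the table lists 22 transcripts of it, of which 15 had a value above 0 in some library. Its gene sum was 143 and 228 TPM in ref-RNA, 244 and 328 TPM in EC-RNA, and 4167 and 9809 TPM in mock-RNA. It was the highest member in all 6 libraries, ranking 650 and 388 among all genes in ref-RNA, 473 and 389 in EC-RNA, and 42 and 17 in mock-RNA. *trol* was higher in mock-RNA than in ref-RNA by 5.14 ± 0.60 on the log2 scale (limma adjusted p = 0.00711), under every scaling. The call was lost without either ref-RNA replicate (adjusted p = 0.169 and 0.148). The EC-RNA values were above both ref-RNA values, but the difference of 0.64 ± 0.83 did not pass (limma adjusted p = 0.591).

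Most of the *trol* signal came from a single transcript, trol-RAX (FBtr0342823), which was singled out after its values were seen. It was at 86.8 and 149 TPM in ref-RNA, 243 and 197 TPM in EC-RNA, and 4163 and 9804 TPM in mock-RNA. These values are 60.5% and 65.6% of *trol* in ref-RNA, 99.6% and 60.1% in EC-RNA and 99.9% and 99.951% in mock-RNA. The transcript ranked 41 and 17 among all transcripts in mock-RNA. It rose in mock-RNA against ref-RNA by 5.80 ± 0.70 (limma on transcripts, adjusted p = 0.00931).

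In the annotation trol-RAX has 13213 bases, of which 4467 form its 3′ untranslated region (UTR). It ends before the last exons of the other annotated transcripts, apart from trol-RAG, which ends earlier still. It has 2941 bases found in no other listed *trol* transcript that the annotation holds (FBtr0342805 is not in it), in 3 runs of 1218, 613 and 1110 bases, and all of them lie in the 3′ UTR. The longest run, at X, 2476259-2477476, is overlapped by no exon of another gene. Whether reads in mock-RNA fell on these bases or along the whole transcript was not tested, since only TPM were analysed.

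Without trol-RAX, *trol* was at 56.7 and 78.4 TPM in ref-RNA, 0.899 and 131 TPM in EC-RNA, and 3.93 and 4.83 TPM in mock-RNA. The difference of mock-RNA from ref-RNA was then -3.66 on the log2 scale (limma adjusted p = 0.00498). Since trol-RAX was picked for its values in these libraries, this is no independent test of the other transcripts. Reads on exons that they share with trol-RAX may have been assigned to it, which was not tested. In EC-RNA replicate 2 the remainder was almost entirely trol-RAR (FBtr0342817), at 129 TPM, which was at 0 in the other 5 libraries. The EC-RNA difference without trol-RAX was -2.10 (limma adjusted p = 0.562), and EC-RNA differed from mock-RNA by 1.56 (limma adjusted p = 0.681).

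**Figure D3:**
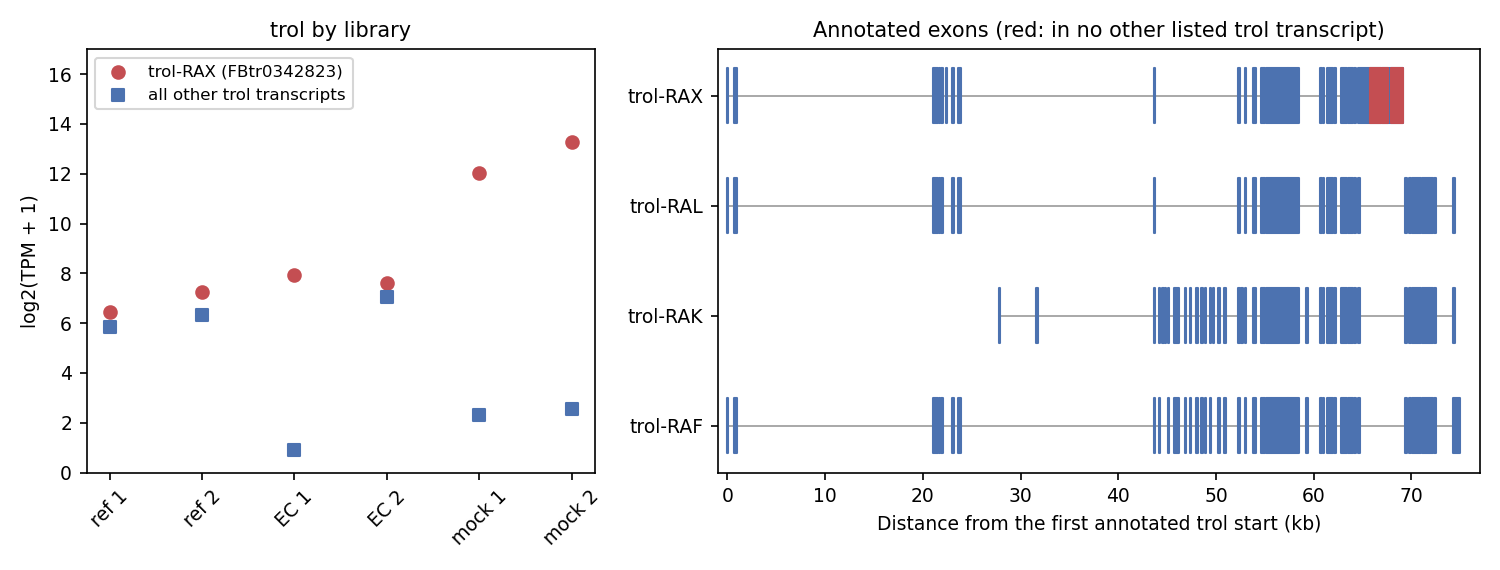
Left, level of trol-RAX and of the other *trol* transcripts together, as log2(TPM + 1), in the 6 libraries. Right, annotated exons of trol-RAX and 3 other *trol* transcripts against distance from the first annotated *trol* start in kb, with the 2941 bases particular to trol-RAX in red; trol-RAX reaches 4163 and 9804 TPM in mock-RNA, where the other transcripts are at 3.93 and 4.83 TPM.

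Across the 10 genes, 3 fell in EC-RNA against ref-RNA (*Col4a1*, *LanB2* and *SPARC*), where 56.0% of 9064 genes tested did so. None rose, where 0.199% of genes did. Both EC-RNA values were below both ref-RNA values for 7 members, against 69.1% of genes, and above them for *Pxn* and *trol*, against 3.16% of genes. The median difference of the members was -3.15 and that of all genes tested was -2.59, with 6 members below the latter. Scaling by the median of ratios, which moves the ratio of EC-RNA to ref-RNA TPM up by 3.18 on the log2 scale, gave a median of -0.44 for the members and -1.49 for all genes that then passed the filter. Under quantile normalization these medians were -0.30 and -0.80. Whether the members lay below or above the median of all genes thus depended on the scaling. Under every scaling *Col4a1*, *vkg*, *LanB1*, *LanB2*, *Ndg* and *SPARC* stayed below 0 and *Pxn* and *trol* above 0, while the signs of *LanA* and *Ppn* changed as given above. Some of these values were close to 0, with *vkg* at -0.15 and *SPARC* at -0.087 under quantile normalization (limma adjusted p = 0.952 and 0.961).

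In mock-RNA against ref-RNA, 3 members fell (*LanA*, *LanB2* and *Ppn*), where 67.1% of 9025 genes did, and *trol* rose, where 0.731% did. Both mock-RNA values were below both ref-RNA values for 9 members, against 86.3% of genes, and above them for *trol* alone, against 1.39% of genes. The median difference was -2.13 for the members and -3.19 for all genes, and only *LanA* was below the latter. The median of the members was above 0 under quantile normalization (1.06) and median-of-ratios scaling (0.21). Both comparisons share the ref-RNA libraries. Side by side, *Col4a1* was at -4.85 in EC-RNA and -0.91 in mock-RNA, *vkg* at -3.38 and -1.15, *LanB2* at -4.62 and -2.29, *LanA* at -0.62 and -3.29, and *Ppn* at -0.02 and -1.96.

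EC-RNA was compared with mock-RNA directly, since RNA that binds to the beads without a tag is found in both. No member was called with limma, where 0.0244% of 4096 genes fell and 0.342% rose. At an unadjusted p below 0.05, 1 member (*trol*) and 568 genes passed. With the 3 sample types in 1 fit, *trol* was called lower in EC-RNA than in mock-RNA (limma adjusted p = 0.0218). The values of 4 members were lower in both EC-RNA libraries than in both mock-RNA libraries (*Col4a1*, *vkg*, *LanB2* and *trol*), against 8.57% of genes, and those of *LanA*, *Ppn* and *Pxn* were higher, against 33.9% of genes. *Col4a1* differed by -3.94 ± 2.13 (limma adjusted p = 0.589) and *LanA* by 2.68 ± 1.60 (limma adjusted p = 0.589). The median difference of the members was -1.60 and that of all genes tested was 1.91, with 7 of the 10 members below it. Without its most abundant transcript, *trol* lay at 1.56 in this comparison.

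**Figure D4:**
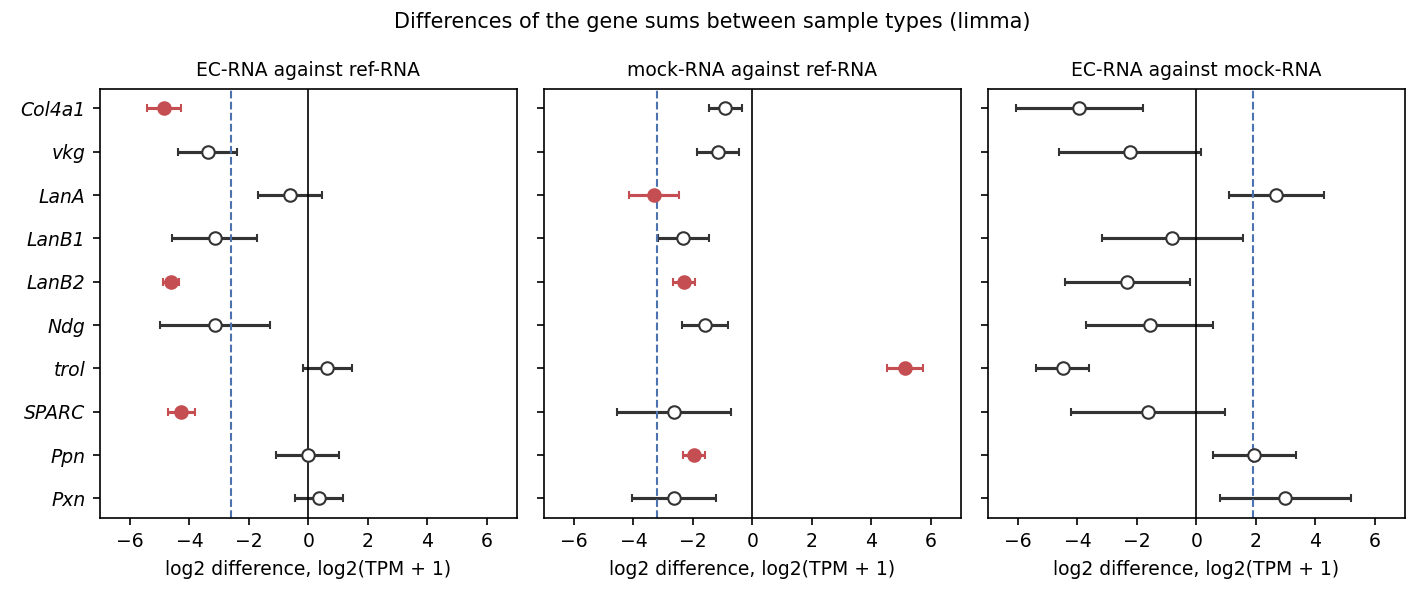
Difference of each gene between sample types on the log2(TPM + 1) scale (x axis) with its standard error; filled red points passed the limma test (adjusted p below 0.05 and at least 2-fold) and the dashed blue line is the median of all genes tested (-2.59, -3.19 and 1.91). In EC-RNA against ref-RNA the members fall into a group below -3 and a group near 0, and in mock-RNA against ref-RNA *trol* stands alone above 0.

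The transcripts to which the TPM were assigned differed between sample types as well. *Col4a1* was Col4a1-RB (FBtr0079002, 6101 bases) only in ref-RNA, at 38.3 and 76.0 TPM, and this transcript was at 0 in the other 4 libraries. Col4a1-RC (FBtr0079001, 5635 bases) made up all of it in EC-RNA replicate 1 and in both mock-RNA libraries, and Col4a1-RA (FBtr0079003, 6000 bases) in EC-RNA replicate 2. The 3 transcripts have the same coding length and differ in their UTRs, with 542, 193 and 377 bases of 3′ UTR in RB, RC and RA. Col4a1-RC has 0 bases that are found in neither of the others, Col4a1-RA has 64 and Col4a1-RB has 165. Whether reads were assigned to the right transcript was not tested, here or for the genes below, since only TPM were analysed.

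*LanB1*, *LanB2* and *Ndg* showed the same pattern. LanB1-RA (FBtr0079490, 6235 bases) was at 44.4 and 44.5 TPM in ref-RNA but at 0 in EC-RNA and mock-RNA, where LanB1-RB (FBtr0079491, 5947 bases) made up the whole gene sum. LanB2-RB (FBtr0345031, 5857 bases) was at 30.5 and 25.1 TPM in ref-RNA but at or near 0 elsewhere. There the sum was LanB2-RA (FBtr0076382, 5762 bases), at only 0.201 and 0.148 TPM in EC-RNA and 6.27 and 3.79 TPM in mock-RNA. Ndg-RC (FBtr0339459, 4816 bases) was at 82.5 and 57.8 TPM in ref-RNA but at 0 elsewhere, where Ndg-RA (FBtr0088349, 4612 bases) made up the sum. LanB1-RB and Ndg-RA were also at 8.60 and 8.08 TPM in ref-RNA replicate 2, against 0.780 and 0.889 TPM in EC-RNA replicate 1 and 16.7 and 36.5 TPM in EC-RNA replicate 2. Within each pair the coding length is the same, the *LanB1* and *LanB2* transcripts differ in the 5′ UTR and the *Ndg* transcripts in the 3′ UTR, and the transcript seen in EC-RNA and mock-RNA was the shorter. LanB1-RB, LanB2-RA and Ndg-RA have only 47, 59 and 0 bases that the other transcript of their pair lacks.

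*Ppn* was assigned to different transcripts in the other sample types, and each of its 4 transcripts has 0 bases of its own. Ppn-RC (FBtr0300337, 7372 bases), the shortest of its 4 transcripts, which differ in coding length, was at 4.29 and 1.46 TPM in ref-RNA, 80.1 and 34.6 TPM in EC-RNA, and 0 in both mock-RNA libraries. It rose in EC-RNA against ref-RNA by 3.90 ± 0.86 (limma on transcripts, adjusted p = 0.0401) while the *Ppn* gene sum hardly differed. In mock-RNA all of *Ppn* was Ppn-RF (FBtr0301838, 9178 bases), at 16.6 and 16.5 TPM. Ppn-RE (FBtr0301837, 9544 bases), the leading transcript of ref-RNA replicate 1, was at 30.4 and 1.51 TPM in ref-RNA but at 0 elsewhere. Ppn-RG (FBtr0301839, 9373 bases), which led in replicate 2, was at 14.2 and 34.5 TPM in ref-RNA but at 1.12 TPM or 0 elsewhere. *vkg* (vkg-RB, FBtr0333540) and *SPARC* (SPARC-RB, FBtr0334309) kept the same leading transcript wherever they had a value, and *LanA* has a single listed transcript, LanA-RA (FBtr0077014). *Pxn* was led by Pxn-RE (FBtr0072954, 4820 bases) in both ref-RNA libraries, in EC-RNA replicate 2 and in mock-RNA replicate 1, and by Pxn-RB (FBtr0072950, 2492 bases) in EC-RNA replicate 1, at 19.8 TPM.

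**Figure D5:**
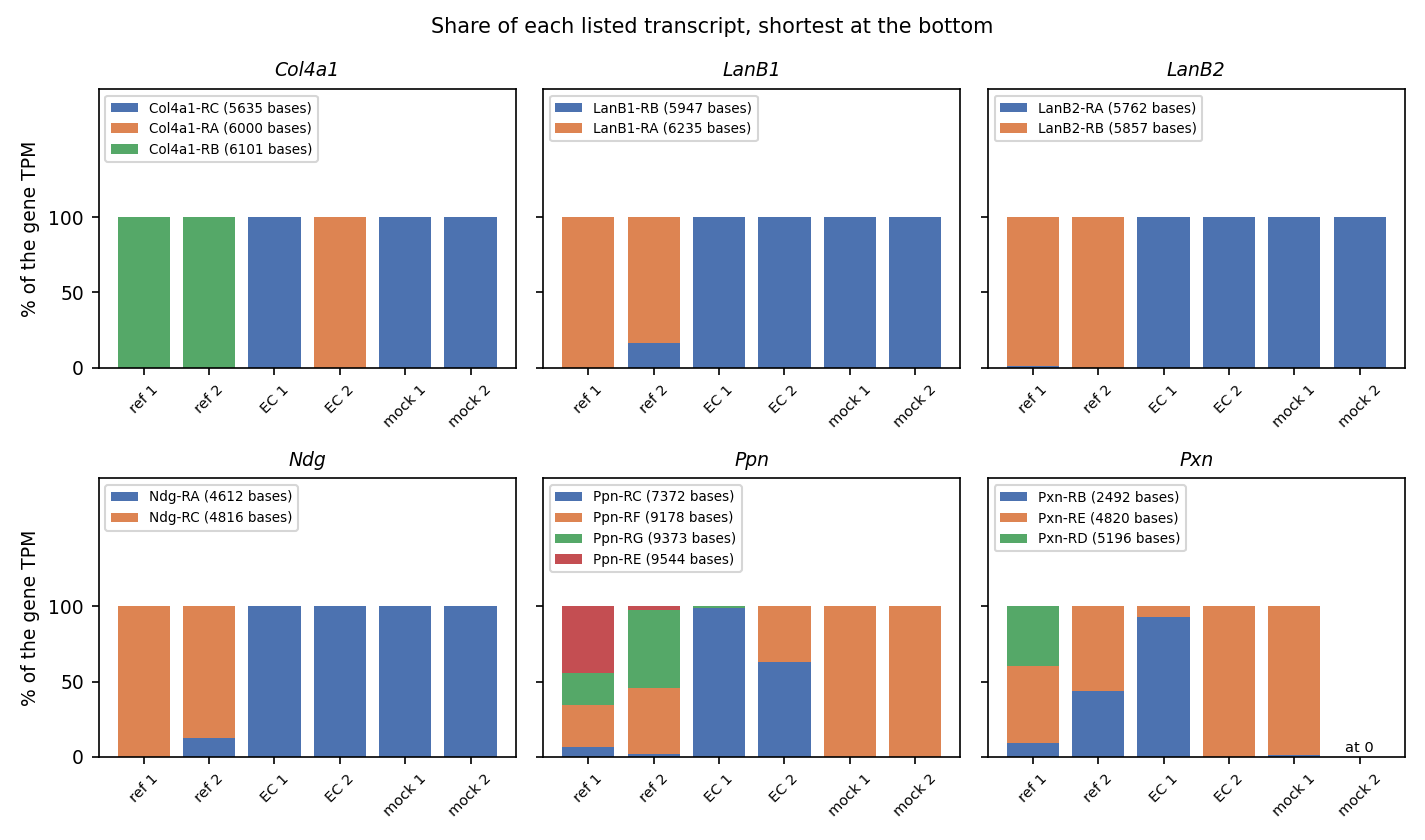
Share of the gene TPM taken by each listed transcript (y axis, percent) in the 6 libraries, with transcripts stacked from the shortest at the bottom and their annotated lengths in the legend. In *Col4a1*, *LanB1*, *LanB2* and *Ndg* the transcript that leads in ref-RNA is absent from EC-RNA and mock-RNA.

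Of 25 member transcripts tested in EC-RNA against ref-RNA, 9 fell, where 44.5% of 14534 transcripts did, and 1 rose, where 0.592% did. Those that fell were the leading ref-RNA transcripts of *Col4a1*, *LanB1*, *LanB2*, *Ndg* and *SPARC*, 1 of *Ppn* and 3 of *trol*. Ndg-RC had the largest difference among them, at -6.13 ± 0.46 (limma adjusted p = 0.00670). It was at 0 in both EC-RNA libraries, so the size of this difference is set by its ref-RNA level and the added 1 TPM. The same holds for Col4a1-RB, LanB1-RA and LanB2-RB. In mock-RNA against ref-RNA, 8 of 26 fell, where 52.7% of 14457 did, and 3 rose, where 1.22% did. The 3 that rose were trol-RAX, Col4a1-RC at 4.87 ± 0.20 and LanB2-RA at 2.31 ± 0.36 (limma adjusted p = 0.00137 and 0.0162). Col4a1-RC was at 0 in both ref-RNA libraries, so its fitted value depends on the added 1 TPM. In EC-RNA against mock-RNA no transcript was called among 5502 tested by limma, and 500 of them, 2 of the members among these, had an unadjusted p below 0.05.

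The assignment to a shorter transcript was not particular to these genes. Between ref-RNA replicate 1 and EC-RNA, the leading transcript differed in 6 of the 9 members with several listed transcripts for EC-RNA replicate 1 and in 5 for replicate 2, and the EC-RNA transcript was the shorter in all of these. Over all such genes with a value in both libraries, the leading transcript was the same in 57.1% and 54.4%, and where it differed the EC-RNA transcript was the shorter in 82.1% and 83.1%. For mock-RNA these figures were 45.4% and 44.9% the same, with the mock-RNA transcript shorter in 87.3% and 85.1% of the rest. Between the ref-RNA replicates 70.0% had the same leading transcript, and the transcript of replicate 2 was the shorter in 46.8% of the rest. The exons of 7 of the 10 genes share no base with exons of another annotated gene, and the shared bases make up 3.28% in *Ndg*, 3.91% in *Pxn* and 0.111% in *trol*.

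Of 6 genes that act on collagen IV before and during its secretion, 4 fell in EC-RNA against ref-RNA, where 56.0% of all genes did. Their median difference was -4.29, and that of all genes was -2.59. *Plod*, which encodes the lysyl hydroxylase of collagen IV, was at 76.3 and 119 TPM in ref-RNA, 2.87 and 0.966 TPM in EC-RNA and 19.8 and 8.99 TPM in mock-RNA, and fell by 5.12 ± 0.77 in EC-RNA (limma adjusted p = 0.0113). *PH4alphaEFB*, the catalytic subunit of the fat body prolyl hydroxylase, was at 11.1 and 15.5 TPM in ref-RNA, 0 and 0.1005 TPM in EC-RNA and 0 in mock-RNA. *Tango1*, which loads collagen into secretory carriers, was at 39.2 and 34.7 TPM in ref-RNA, 0.753 and 0 TPM in EC-RNA and 2.69 and 4.88 TPM in mock-RNA. *Rab10*, a GTPase of basal secretion, fell by 4.82 ± 1.05 in EC-RNA (limma adjusted p = 0.0285). *Pdi*, which encodes the beta subunit of prolyl hydroxylase, was at 635 and 1300.3 TPM in ref-RNA and 276 and 739 TPM in EC-RNA (-1.01, limma adjusted p = 0.394). *Crag*, which acts in basal secretion, was at 25.0 and 26.7 TPM in ref-RNA and 0.412 and 35.7 TPM in EC-RNA, on either side of the ref-RNA values. In mock-RNA against ref-RNA 4 of the 6 fell, where 67.1% of all genes did (*PH4alphaEFB*, *Tango1*, *Crag* and *Plod*), with a median of -3.92 against -3.19 for all genes.

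The other matrix genes and the receptors were mixed. Of the matrix genes outside the core, 3 of 5 tested fell in EC-RNA against ref-RNA, where 56.0% of all genes did, with a median of -2.76 against -2.59 for all genes. *Tig*, which encodes the integrin ligand tiggrin, fell by 5.00 ± 0.53 (limma adjusted p = 0.00516). *Mp*, which encodes the multiplexin collagen, fell by 3.71 ± 0.23 (limma adjusted p = 0.00286), and *prc*, which encodes pericardin, fell by 2.76 ± 0.48 (limma adjusted p = 0.0161). In mock-RNA 2 of the 5 fell, where 67.1% of all genes did, namely *Mp* and *frac*. *frac* was at 130 and 126 TPM in ref-RNA, 118 and 118 TPM in EC-RNA and 8.11 and 14.7 TPM in mock-RNA.

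Of 5 receptor genes tested, 2 fell in EC-RNA against ref-RNA, where 56.0% of all genes did, and 4 in mock-RNA against ref-RNA, where 67.1% did. Their medians were -2.97 and -4.72, against -2.59 and -3.19 for all genes. *mys*, which encodes the main integrin beta chain, was at 180 and 174 TPM in ref-RNA, 6.27 and 0.643 TPM in EC-RNA and 6.05 and 5.48 TPM in mock-RNA. *mew*, an integrin alpha chain gene, was at 19.1 and 14.1 TPM in ref-RNA and 0.153 and 0.0508 TPM in EC-RNA. *if*, another integrin alpha chain gene, was at 164 and 138 TPM in ref-RNA, 2.04 and 122 TPM in EC-RNA and 6.40 and 7.73 TPM in mock-RNA, and fell by 4.23 ± 0.39 in mock-RNA (limma adjusted p = 0.00423). *Dg*, the dystroglycan gene, was at 48.0 and 40.7 TPM in ref-RNA, 0.501 and 113 TPM in EC-RNA and 0 in both mock-RNA libraries. *if* and *Dg* thus showed the gap between EC-RNA replicates seen in *Ndg* and *LanB1*, while *mys*, *mew* and *Sdc* were lower in EC-RNA replicate 2. *Sdc*, the syndecan gene, was at 268 and 341 TPM in ref-RNA, 258 and 137 TPM in EC-RNA and 8.47 and 7.68 TPM in mock-RNA.

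Of the remodelling genes, *Mmp2*, which encodes a membrane-bound matrix metalloprotease, fell in both comparisons. It fell by 2.60 ± 0.26 in EC-RNA (limma adjusted p = 0.00435) and fell by 2.91 ± 0.13 in mock-RNA (limma adjusted p = 0.000993). It was 1 of 4 tested, and the others did not pass in either comparison. Of all genes, 56.0% fell in EC-RNA and 67.1% in mock-RNA. No gene of these lists rose against ref-RNA, and none was called between EC-RNA and mock-RNA with limma, as deposited and with all libraries. With all 3 sample types in 1 fit, 1 receptor gene was called higher against mock-RNA. The counts of genes called higher also changed where an EC-RNA replicate was left out, in fits that hold no spread of EC-RNA. The counts against ref-RNA depended on the scaling. Under quantile normalization none of the 10 list genes called in EC-RNA passed, and median-of-ratios scaling gave 1 call in the collagen IV modification list and 1 among the receptors.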

How the data were processed

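Libraries of 3 sample types (EC-RNA, ref-RNA and mock-RNA, 2 each, grouped by the treatment label) were analysed. The authors trimmed reads with Trimmomatic and quantified the BDGP6 transcriptome with kallisto (versions not given in the sources used here), and deposited TPM per transcript, which keep no depth. Blanks were read as 0 and gene values are sums over transcripts. Differences were tested with limma 3.58.1 in R 4.3.3 on log2(TPM + 1), with a trended spread and no replicate block, over every gene or transcript whose mean over the 4 libraries reached 1 TPM. The call threshold was 0.05 for the p-value after Benjamini-Hochberg adjustment, together with a 2-fold difference. The study tested read counts with DESeq2, which TPM do not allow. Tables were made with Python 3.11.15, pandas 2.3.3 and NumPy 2.4.6. Positions and transcript lengths were read from Ensembl release 115 (BDGP6.54), which may differ from the authors' index.

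The text names all members, the leading transcript of each member in each library, and the genes of related lists past the threshold in a comparison, at most 6 a list by smallest adjusted p. *Pdi* and *Crag* in EC-RNA were added after their values were seen. Members, lists and markers were chosen with earlier results of these data known. Alternatives were other pseudocounts, filters and scalings, all sample types in 1 fit, a replicate block, gene sums for transcripts and leaving out each replicate. *trol* without trol-RAX was added after seeing the data. Same-numbered replicates did not deviate together (r of 0.0037, 0.0013 and 0.0105 over 8532 genes).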

Additional observations from a re-analysis of the deposited data

How the results depend on the processing

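With 2 libraries per sample type and no read counts, scaling decided most calls. Under quantile normalization EC-RNA against ref-RNA gave 0 genes called lower, 0 called higher and 0 members called lower with limma, although 2435 genes had an unadjusted p below 0.05 (5080 lower and 18 higher under TPM as deposited), with a members' median of -0.30 and *Ppn* at 0.28. Median-of-ratios scaling gave 2032 genes lower, 126 higher, 1 member lower and a median of -0.44, with *LanA* at 2.51 and *Ppn* at 3.11. *Ppn* was at 0.18 after rescaling without the 10 most abundant genes and at 0.20 without mitochondrially encoded genes. In mock-RNA against ref-RNA, quantile normalization gave 2942 genes lower, 173 higher, 0 members lower and a median of 1.06, with *Col4a1* at 1.88, *vkg* at 1.95, *LanB1* at 0.76, *LanB2* at 1.18, *Ndg* at 1.18, *SPARC* at 0.013, *Ppn* at 0.95 and *Pxn* at 0.13. Median-of-ratios scaling gave 4280 genes lower, 162 higher, 0 members lower and a median of 0.21, with *Col4a1* at 1.50, *vkg* at 1.17, *Ndg* at 0.82 and *Ppn* at 0.44. In the same comparison, rescaling without the 10 most abundant genes gave 5714 genes and 1 member lower. In EC-RNA against mock-RNA, quantile normalization gave 8 genes lower, 1 member lower (*trol*), a median of -3.83 and *Ppn* at -1.45, rescaling without the 10 most abundant genes gave 4 genes lower, median-of-ratios scaling gave 3 lower and 7 higher, and rescaling without mitochondrially encoded genes gave 2 lower and 26 higher. The share of calls that were higher was 93.3% as deposited, 66.7% under quantile normalization, 70.0% under median-of-ratios scaling and 78.9% without the 10 most abundant genes. Of the related lists, the other matrix components had 2 genes higher in mock-RNA against ref-RNA under quantile normalization and 1 under median-of-ratios scaling. The cause of these shifts was not tested beyond the scaling itself.

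The pseudocount set the size of the differences. With 0.1 the members' median in EC-RNA against ref-RNA was -3.64, with 10 it was -1.71 and 2749 genes were lower. In mock-RNA against ref-RNA, 0.1 left 5969 genes and 1 member lower, and 10 gave a median of -1.19. In EC-RNA against mock-RNA, 0.1 gave 4 genes higher, and 10 gave 3 lower, 22 higher and a median of -0.60. A filter at 5 TPM, which tests fewer genes, gave 2992 genes lower in EC-RNA and 3903 in mock-RNA, and no filter gave 2 lower in EC-RNA against mock-RNA. *LanB2* at that filter and *SPARC* without mock replicate 1 gave no value in EC-RNA against mock-RNA. With all sample types in 1 fit, 5215 genes and 1 member were lower in mock-RNA against ref-RNA, and in EC-RNA against mock-RNA 40 genes were lower, 286 higher and 1 member lower.

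The replicate numbers did not pair the samples. With a replicate block, EC-RNA against ref-RNA had 4537 genes lower, 9 higher and 4 members lower, with *vkg* added (limma adjusted p = 0.0276). With that block, mock-RNA against ref-RNA had 5675 genes and 0 members lower, and EC-RNA against mock-RNA had 37 genes lower, 157 higher and 1 member lower.

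As gene sums in place of transcripts, EC-RNA against ref-RNA had 3 members lower, 0 members higher and 18 genes higher, mock-RNA against ref-RNA had 3 members lower, 1 higher and 66 genes higher, and EC-RNA against mock-RNA had 1 gene lower and 14 higher. The sign turned for Ppn-RC (FBtr0300337, gene sum -0.020) and for FBtr0342810, FBtr0342805 and FBtr0342811 of *trol* (0.64) in EC-RNA, and for Col4a1-RC (FBtr0079001, -0.91), LanB2-RA (FBtr0076382, -2.29), FBtr0342810 and FBtr0342805 (5.14) in mock-RNA. Without FBtr0342823, *trol* was at -2.10, -3.66 and 1.56 in the 3 comparisons.

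Leaving out each library in turn, with the spread pooled and the lone sample assumed to vary like the others, gave 2 to 6 members lower in EC-RNA against ref-RNA (6 without EC-RNA replicate 2, 5 without EC-RNA replicate 1), 1 to 969 genes higher (969 without EC-RNA replicate 1), a median from -4.09 to -1.24 and *Ppn* from -0.30 to 0.26. In mock-RNA against ref-RNA it gave 1 to 6 members lower, 11 to 196 genes higher and 0 to 1 members higher. In EC-RNA against mock-RNA it gave 0 to 60 genes lower, 0 to 940 genes higher, 0 to 1 members lower, a median from -2.38 to -0.34, *LanB1* from -2.47 to 0.84 and *Ndg* from -3.72 to 0.59.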
